A study of Homo sapiens with 26 samples.

Results

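Transcript levels of 10 feedback genes of the ERK pathway were measured by bulk RNA sequencing in ZR751 tumors. The genes were DUSP4, DUSP5, DUSP6, SPRY1, SPRY2, SPRY4, SPRED1, SPRED2, ETV4 and ETV5, taken by symbol from the 30331 named genes of the table. That rule used no measured value, but the members were chosen with earlier results of these data known. ETV5 was too low to test, and the other 9 were among the 14079 genes with a mean of at least 1 TPM in at least 3 mice. ZR751 is a human breast cancer line that carries hormone receptors and lacks amplified HER2, and its cells were placed under the skin of female NSG mice, a strain without mature T, B and natural killer cells. Resistant tumors (5 mice) had received atirmociclib (PF-07220060), a drug that blocks CDK4, the kinase that starts the cell cycle together with cyclin D, by mouth at 60 mg/kg BID, the doses of a day 7 hours apart, for 84 to 91 days in a separate study, and their time label reads 2040 hours. Sensitive tumors (3 mice) had received the same dose for 3 days, and vehicle tumors (5 mice, whose treatment label reads DMSO) received no drug for 3 days. For sensitive and vehicle mice dosing began at an average tumor volume of 150 mm3 and collection came 3 hours after the final dose, and each of the 13 tumors gave 2 libraries, A and B, so the mouse was the replicate. The resistant study has no vehicle mice among these samples, so length of treatment, study and resistance cannot be told apart wherever resistant tumors are compared. Starting tumor volume and time from final dose to collection are not given for resistant mice. Differences in either cannot be told apart from these factors.

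Growth factor receptors switch on RAS, which passes the signal through RAF and MEK to the kinase ERK. ERK in turn induces genes whose products switch the pathway back off, and their transcripts are widely read as a record of ERK output. The DUSP proteins of this set remove the activating phosphates from ERK, the Sprouty (SPRY) and SPRED proteins hold back RAS and RAF further upstream, and ETV4 and ETV5 are transcription factors of the ETS family that are themselves induced by ERK. In breast epithelium the pathway is driven mainly by ERBB, FGF and insulin-like growth factor receptors.

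The promoters of SPRY1, which was lower in resistant than in vehicle tumors, and of SPRY2, one of its relatives that were higher, are given first because ETS factors are among the factors through which ERK acts. Promoter windows from RefSeq (GRCh38.p14), running from 250 bases before a start site to 50 after it, were at hand for 6 of the 10 genes and held 10 windows of 300 bases. Each line below gives the 250 bases before the most upstream RefSeq start, 5′ to 3′ on the gene's own strand, with capitals marking the ETS core GGAA on either strand. SPRY1 lies on the plus strand and its stretch is chr4:123396545-123396794, and SPRY2 lies on the minus strand and its stretch is chr13:80341127-80341376.
SPRY1: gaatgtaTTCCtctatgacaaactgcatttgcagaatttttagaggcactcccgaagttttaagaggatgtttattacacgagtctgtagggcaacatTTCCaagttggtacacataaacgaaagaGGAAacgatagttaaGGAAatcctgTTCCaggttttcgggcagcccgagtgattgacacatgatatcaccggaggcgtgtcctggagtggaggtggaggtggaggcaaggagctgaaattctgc
SPRY2: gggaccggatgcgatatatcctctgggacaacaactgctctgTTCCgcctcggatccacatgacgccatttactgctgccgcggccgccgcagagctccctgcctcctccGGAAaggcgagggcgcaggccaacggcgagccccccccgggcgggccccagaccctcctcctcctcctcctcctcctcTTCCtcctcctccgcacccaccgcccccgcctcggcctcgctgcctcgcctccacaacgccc
SPRY1 held 5 core matches in these 250 bases and SPRY2 held 3. The core was in 10 of 10 windows of the feedback genes and in 95.5% of all 35116 windows, whose median was 3 matches, so it does not set these genes apart. The longer ETS motif CCGGAAG, which contains the core, was searched on both strands and matched 1 of the 10 windows, against 10.3% of all windows. That match lies 67 bases before a downstream SPRY1 start, inside the annotated gene, and is shown with 10 bases on either side and the motif in capitals (chr4:123398309-123398335, plus strand).
SPRY1 downstream start: ccctccgcagCCGGAAGggggccgcgg
The AP-1 motif TGANTCA was in 1 of the 10 windows, the downstream start of SPRED2, against 7.71% of all windows. The cyclic AMP response element TGACGTCA was in 0 of 10 against 1.85%, and the CArG box was in 0 of 10 against 1.29%. Windows for DUSP4, DUSP5, ETV4 and ETV5 were not analysed here.

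Libraries A and B of a mouse correlated at 0.989 to 0.994 across genes, which are not independent replicates, and for each of the 26 libraries the nearest other library came from the same mouse. Where in the work A and B were split is not stated in the labels. The values are TPM, which are scaled per transcript length, so levels of different genes can be set side by side, but the depth of a library is unknown and no counting interval is given. All 8 luminal epithelial markers were above 1 TPM and together reached 15411 to 19094 TPM in resistant, 12570 to 14012 TPM in sensitive and 10759 to 18110 TPM in vehicle tumors. Summed leukocyte markers were 9.43 to 16.4 TPM in resistant, 6.09 to 9.13 TPM in sensitive and 4.17 to 6.73 TPM in vehicle tumors, with 2 of 8 at 1 TPM or more by their mean over the 13 mice. The myeloid markers TYROBP and AIF1 were listed at 0 in every mouse, and the general leukocyte marker PTPRC reached at most 0.015 TPM. In resistant and vehicle tumors CD68 averaged 7.97 and 2.33 TPM and LYZ 3.08 and 0.658 TPM, while CSF1R averaged 0.076 and 0.662 TPM. Of the 5 leukocyte markers tested, 3 were called higher and 1 lower in resistant versus vehicle tumors. Summed fibroblast markers were 34.2 to 59.8 TPM in resistant, 13.9 to 18.4 TPM in sensitive and 35.5 to 60.0 TPM in vehicle tumors, with only COL1A1 and FBLN1 of 8 at 1 TPM or more by the same mean. Basal markers reached 8.89 to 12.7 TPM in resistant, 19.4 to 39.3 TPM in sensitive and 10.3 to 30.3 TPM in vehicle tumors. Endothelial markers stayed at or under 0.645 TPM, adipocyte markers at or under 1.70 TPM and skeletal muscle markers at or under 2.06 TPM in sum. All these markers were read as human genes, while the host tissue of a tumor grown in a mouse is of mouse origin. The sums therefore do not measure how much host tissue a tumor held, and low sums do not show that it was scarce. The part of other cells in the results below was not tested. In bulk tumors fewer cells of a type and less RNA per cell cannot be told apart.

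A gene was called changed at an adjusted p under 0.05 (limma on log2(TPM + 1), Benjamini-Hochberg over the 14079 genes, two-sided). Log2 changes are given with their SE and relative to the median change of all genes, which was -0.05 for resistant versus sensitive, -0.14 for resistant versus vehicle and -0.07 for sensitive versus vehicle tumors. The SE, the adjusted p and the call belong to the change as fitted, before that median was taken off, so a small change can be called although its interval on the relative scale includes 0. On this scale the change of a gene near 1 TPM is understated. Between resistant and vehicle tumors 5 of the 9 tested genes were called, 3 higher (DUSP6, SPRY2 and SPRY4) and 2 lower (DUSP5 and SPRY1). Over all genes 44.0% were called, 11.5% higher and 32.5% lower, so 5 of 9 (55.6%) lies near the background. Between resistant and sensitive tumors 3 of 9 were called, DUSP6 and SPRY4 higher and SPRY1 lower, against 21.1% of all genes, of which 9.56% were higher and 11.6% lower. Between sensitive and vehicle tumors limma called 0 of 9, against 15.7% of all genes (3.16% higher and 12.6% lower), and 1 of the 9, SPRY1, had an unadjusted p under 0.05. The median change of the 9 genes was 0.13 for resistant versus sensitive, 0.32 for resistant versus vehicle and 0.26 for sensitive versus vehicle tumors, where the median of all genes is 0 by construction. These comparisons share mice, so their values stand side by side and are not independent of each other.

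**Figure D1:**
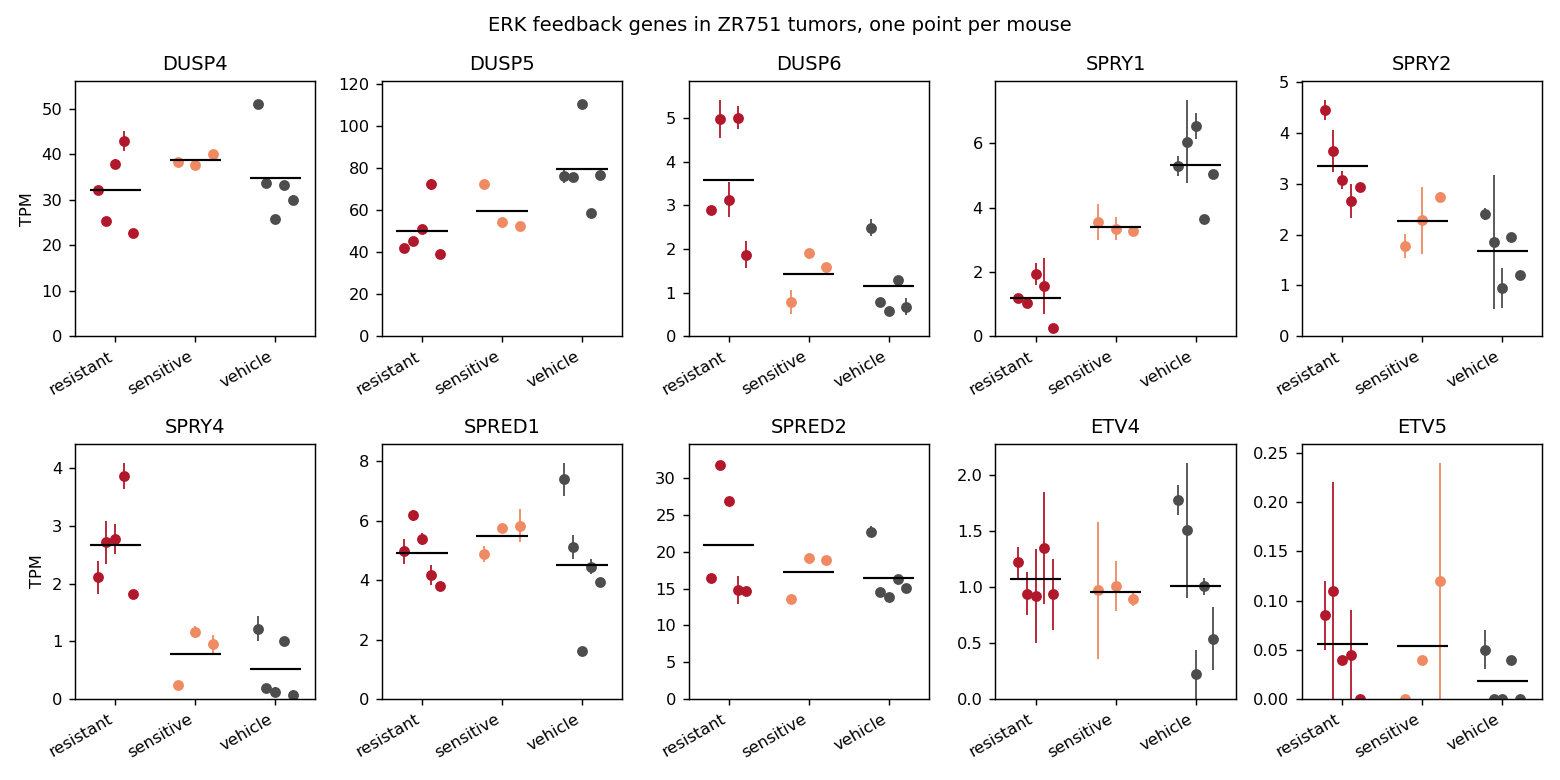
TPM of the 10 feedback genes (vertical axis, one scale per gene) in resistant, sensitive and vehicle tumors. Each point is a mouse, the thin line through it spans its libraries A and B, and the bar is the group mean: resistant points of SPRY1 lie at 0.265 to 1.93 TPM, below all sensitive and vehicle points, while resistant points of SPRY4 lie at 1.83 to 3.87 TPM, above them all.

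The 3 MAP kinase phosphatases differed widely in level. DUSP5, a nuclear phosphatase that acts on ERK, was the most abundant of the 10 in all 3 groups, and DUSP4, a nuclear phosphatase that acts on ERK and related kinases, came next. DUSP6, the cytoplasmic phosphatase specific for ERK, was far lower. In resistant mice 9-3, 9-6, 9-7, 9-8 and 9-9, DUSP6 had 2.90, 4.98, 3.14, 5.01 and 1.88 TPM, against 0.790, 1.92 and 1.6 TPM in sensitive mice 6-4, 6-5 and 6-6 and 2.49, 0.790, 0.585, 1.28 and 0.675 TPM in vehicle mice 1-2, 1-4, 1-5, 1-6 and 1-9. Resistant mice 9-6 and 9-8 stood highest, the lowest resistant mouse 9-9 lay just under sensitive mouse 6-5, and vehicle mouse 1-2 lay inside the resistant range. DUSP6 was thus higher in resistant than in vehicle tumors by 1.23 ± 0.25 (adjusted p = 0.00359), with overlap between the groups, and the ratio of mean TPM was 3.07. Against sensitive tumors it was higher by 0.93 ± 0.29 (adjusted p = 0.0437). That call was lost in 12 of 22 other settings, where the adjusted p reached 0.198; among them was leaving out any one of mice 9-3, 9-6, 9-7, 9-8, 6-4, 6-5, 6-6, 1-4 or 1-9. Sensitive and vehicle tumors differed by 0.28 (95% interval -0.35 to 0.90, adjusted p = 0.679). An antisense gene, AC024909.2, shares 1875 exon bases with DUSP6 in GENCODE 29, and strand use in counting is not stated, so reads of the pair cannot be told apart.

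DUSP5 ran the other way. Resistant tumors had 42.2, 45.4, 51.1, 72.4 and 39.3 TPM, against 72.4, 54.5 and 52.5 TPM in sensitive and 76.5, 75.8, 111, 58.8 and 76.6 TPM in vehicle tumors, in the same order of mice. Resistant mouse 9-8 stood above the other resistant mice, level with the highest sensitive mouse 6-4 and inside the vehicle range. Through mouse 9-8 the resistant group overlapped both other groups. DUSP5 was lower in resistant than in vehicle tumors by -0.53 ± 0.17 (adjusted p = 0.00779), a call that held in all 23 other settings. Sensitive tumors lay between, and neither neighbouring step passed the test (-0.22, adjusted p = 0.362, for resistant versus sensitive and -0.32, adjusted p = 0.203, for sensitive versus vehicle). Its pseudogene DUSP5P1 was listed at mean values of 2.09 TPM in resistant, 2.02 TPM in sensitive and 1.88 TPM in vehicle tumors, so DUSP5 is uncertain to that extent if reads were split between the copies. DUSP4 had 32.3, 25.4, 38.0, 42.9 and 22.6 TPM in resistant, 38.4, 37.6 and 40.1 TPM in sensitive and 51.0, 33.8, 25.9, 33.3 and 30.1 TPM in vehicle tumors. Its groups overlapped throughout, the 3 sensitive mice lay close together, and the resistant versus vehicle difference was 0.03 (95% interval -0.36 to 0.42, adjusted p = 0.647).

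SPRY1, a Sprouty adaptor that holds back receptor signaling to RAS, was the member with the largest fall. Resistant tumors had 1.21, 1.04, 1.93, 1.58 and 0.265 TPM, against 3.57, 3.35 and 3.27 TPM in sensitive and 5.30, 6.06, 6.55, 3.65 and 5.04 TPM in vehicle tumors. The 3 groups did not overlap by mouse mean, and every resistant mouse was below every sensitive mouse, which in turn was below every vehicle mouse. The last separation was narrow, with 3.57 TPM in sensitive mouse 6-4 against 3.65 TPM in vehicle mouse 1-6. Libraries A and B gave 3.01 and 4.12 TPM in mouse 6-4 and 3.77 and 3.53 TPM in mouse 1-6, so single libraries overlapped. SPRY1 was lower in resistant than in vehicle tumors by -1.43 ± 0.19 (adjusted p = 4.11e-05, ratio of mean TPM 0.226) and lower than in sensitive tumors by -1.02 ± 0.22 (adjusted p = 0.00545). Both calls held in all 23 other settings. For sensitive versus vehicle tumors the difference was -0.43 ± 0.22 (unadjusted p = 0.0394, adjusted p = 0.14), which did not pass. Libraries A and B of resistant mouse 9-8 gave 0.700 and 2.45 TPM, the widest such gap for SPRY1 on the log2 scale.

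Of the 9 genes, the resistant and vehicle groups did not overlap for 3 (SPRY1, SPRY2 and SPRY4), of which 2 were higher, against 27.3% of all genes tested (6.63% higher and 20.6% lower). Resistant and sensitive groups did not overlap for 2 of 9 (SPRY1 and SPRY4), against 30.4%, and sensitive and vehicle groups for 1 of 9 (SPRY1), against 21.7% of all genes (5.24% higher and 16.4% lower).

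SPRY4 and SPRY2, its relatives with the same role, were higher in resistant tumors. SPRY4 had 2.12, 2.72, 2.78, 3.87 and 1.83 TPM in resistant, 0.235, 1.17 and 0.950 TPM in sensitive and 1.22, 0.190, 0.120, 1.00 and 0.0750 TPM in vehicle tumors. All 5 resistant mice stood above all 8 others, while sensitive and vehicle tumors overlapped and each held both mice near 1 TPM and mice near the bottom. The rise was 1.45 ± 0.24 against vehicle (adjusted p = 0.000734), with a ratio of mean TPM of 5.11, and 1.10 ± 0.27 against sensitive tumors (adjusted p = 0.0167). The second call was lost without sensitive mouse 6-4 (adjusted p = 0.0956) and with a pseudocount of 0.1 (adjusted p = 0.0693). The sensitive versus vehicle difference was 0.33 (95% interval -0.25 to 0.92, adjusted p = 0.56). SPRY4 overlaps the antisense gene SPRY4-AS1 in GENCODE 29, with 0 exon bases in common.

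SPRY2 had 4.45, 3.64, 3.08, 2.66 and 2.93 TPM in resistant, 1.78, 2.28 and 2.75 TPM in sensitive and 2.41, 1.86, 0.955, 1.96 and 1.21 TPM in vehicle tumors. Resistant tumors lay above all vehicle tumors, and sensitive tumors lay between and overlapped both. SPRY2 was higher in resistant than in vehicle tumors by 0.89 ± 0.17 (adjusted p = 0.00262), a ratio of mean TPM of 2.00. The steps on either side of the sensitive tumors did not pass (0.46 ± 0.19, adjusted p = 0.133, for resistant versus sensitive and 0.41 ± 0.19, adjusted p = 0.252, for sensitive versus vehicle). With the A libraries alone the resistant versus vehicle call was lost (adjusted p = 0.0696). Vehicle mouse 1-4 had 3.18 TPM in its A library and 0.540 TPM in B, the widest A to B gap of any of the 10 genes on the log2 scale.

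**Figure D2:**
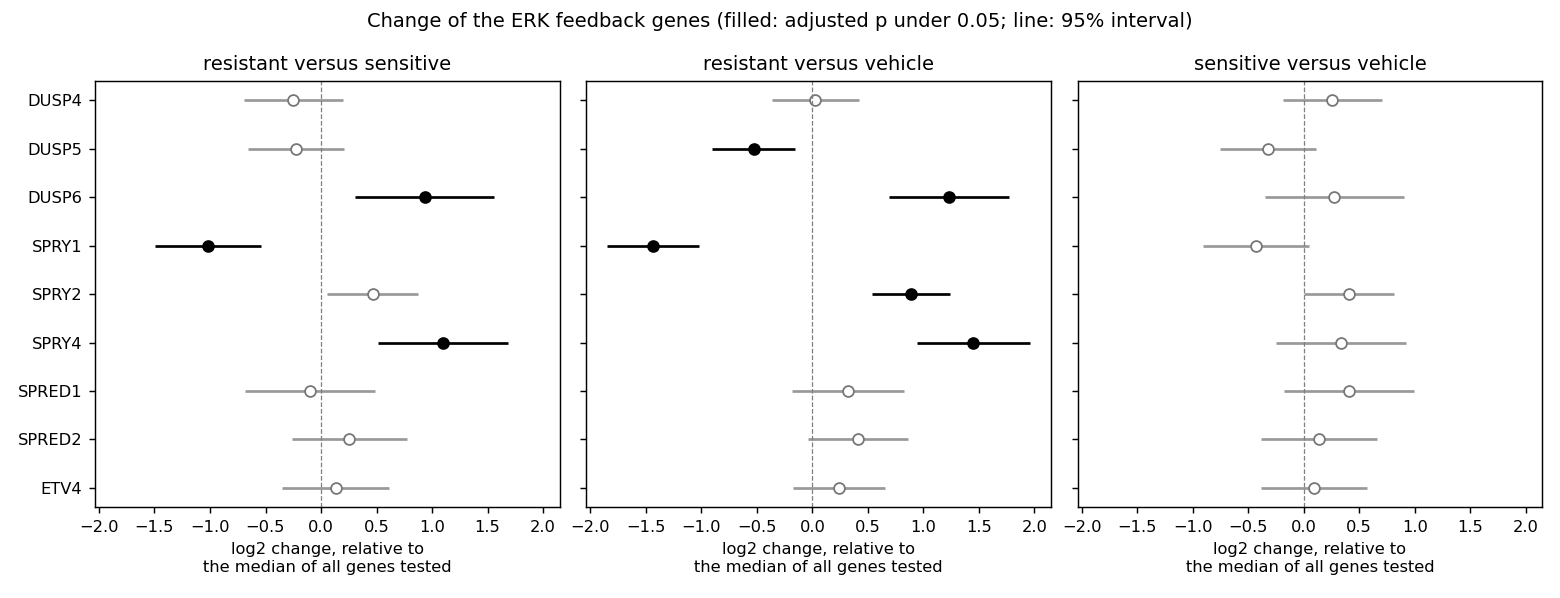
Log2 change of the 9 tested genes (horizontal axis, relative to the median of all genes tested) in the 3 comparisons. Points are estimates, lines are 95% intervals and filled points passed the adjusted threshold: SPRY1 lies left of 0 and SPRY4 and DUSP6 right of 0 wherever resistant tumors enter, and no point is filled for sensitive versus vehicle tumors.

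The summed level of the 3 Sprouty transcripts overlapped between groups, while the share of SPRY1 in it was lower in every resistant mouse than in any other mouse, a description made after the values were seen and given without a test. Their summed TPM was 7.22 ± 1.25 in resistant (SD, n = 5), 6.44 ± 0.755 in sensitive (SD, n = 3) and 7.51 ± 1.07 in vehicle tumors (SD, n = 5). SPRY1 made up 15.8 ± 7.21% of that sum in resistant, 53.4 ± 9.23% in sensitive and 71.0 ± 13.2% in vehicle tumors. SPRY4 made up 36.8 ± 7.30% in resistant, 11.7 ± 6.69% in sensitive and 6.78 ± 6.99% in vehicle tumors. The resistant range of the SPRY1 share, 5.27% to 24.8%, lay below the lowest vehicle value of 55.2% and the lowest sensitive value of 46.9%. Among DUSP4, DUSP5 and DUSP6 the sum was 85.9 ± 21.7 TPM in resistant, 99.9 ± 10.1 TPM in sensitive and 116 ± 17.8 TPM in vehicle tumors, and DUSP6 made up 4.16% in resistant, 1.48% in sensitive and 1.01% in vehicle tumors.

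**Figure D3:**
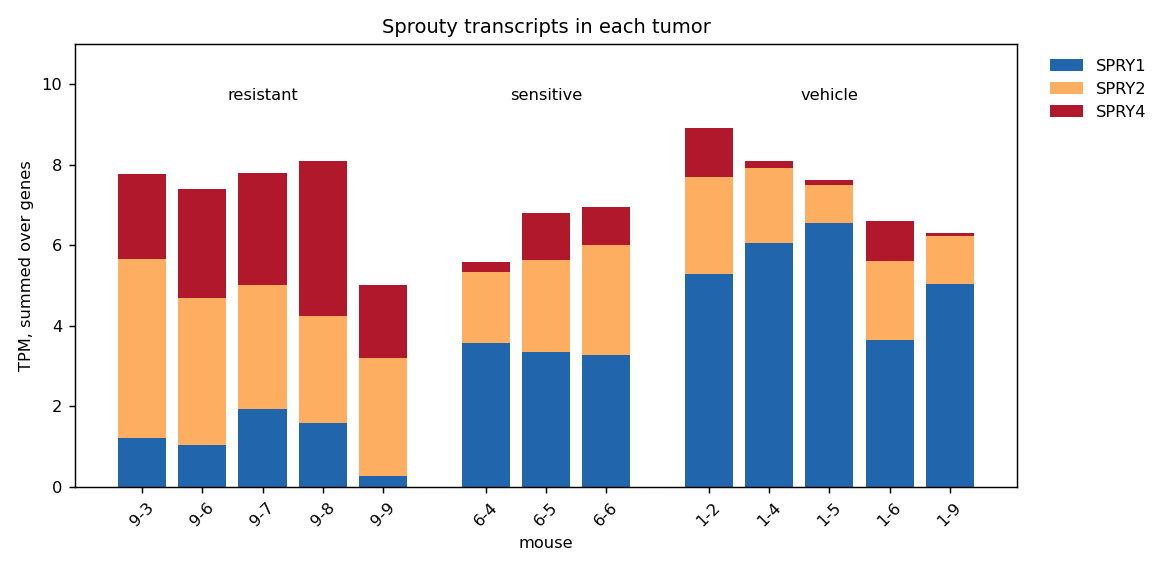
Stacked TPM of SPRY1, SPRY2 and SPRY4 (vertical axis, starting at 0) in each of the 13 mice, grouped as resistant, sensitive and vehicle. Bar heights run from 5.03 to 8.11 TPM in resistant, 5.58 to 6.96 TPM in sensitive and 6.32 to 8.92 TPM in vehicle tumors, and the SPRY1 block is the smallest of the 3 in every resistant bar and the largest in every vehicle bar.

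The SPRED genes, whose products bring the RAS brake neurofibromin to the membrane, were not called in any comparison. SPRED2 had 16.5, 31.7, 27.0, 14.8 and 14.7 TPM in resistant, 13.6, 19.1 and 19.0 TPM in sensitive and 22.8, 14.6, 13.9, 16.3 and 15.0 TPM in vehicle tumors. Resistant mice 9-6 and 9-7 stood above every other mouse and the remaining 3 lay among the sensitive and vehicle tumors, with a resistant versus vehicle difference of 0.41 (95% interval -0.04 to 0.86, adjusted p = 0.308). SPRED1 had 4.97, 6.18, 5.38, 4.17 and 3.82 TPM in resistant, 4.89, 5.77 and 5.84 TPM in sensitive and 7.39, 5.10, 1.61, 4.45 and 3.94 TPM in vehicle tumors. The vehicle mice spanned both the highest and the lowest of these values, and the resistant versus vehicle difference was 0.32 (95% interval -0.19 to 0.83, adjusted p = 0.546). For sensitive versus vehicle tumors the adjusted p was 0.436 for SPRED1 and 0.892 for SPRED2, and for resistant versus sensitive it was 0.734 and 0.572 in that order.

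The ETS factors were at the lower edge of the table. ETV4 had 1.22, 0.940, 0.920, 1.35 and 0.935 TPM in resistant, 0.970, 1.01 and 0.895 TPM in sensitive and 1.78, 1.51, 0.220, 1.01 and 0.540 TPM in vehicle tumors. The vehicle mice again held the highest and the lowest values, and the adjusted p was 0.817 for resistant versus sensitive, 0.687 for resistant versus vehicle and 0.967 for sensitive versus vehicle tumors. The median gap between libraries A and B was 0.47 on the log2 scale, wider than the SD of 0.32 between mice of a group. DHX8, a helicase gene at 21.7 to 44.2 TPM, lies on the opposite strand and shares 68 exon bases with ETV4. ETV5 was listed at 0.0850, 0.110, 0.0400, 0.0450 and 0 TPM in resistant, 0, 0.0400 and 0.120 TPM in sensitive and 0.05, 0, 0, 0.0400 and 0 TPM in vehicle tumors. DGKG, a lipid kinase gene on the same strand, shares 164 exon bases with ETV5 and stayed at or under 0.38 TPM. For ETV5 no mouse was above 0.120 TPM, and no fold is given. Without the filter on low values the adjusted p of ETV5 was 0.96 for resistant versus sensitive, 0.297 for resistant versus vehicle and 0.553 for sensitive versus vehicle tumors.

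The spread among mice of 1 group was shared by several feedback genes, again described after the values were seen. In resistant tumors mouse 9-9 was lowest for 7 of the 9 tested genes and for 15.0% of all genes, and mouse 9-8 was highest for 5 of 9 and for 18.2% of all genes. In vehicle tumors mouse 1-2 was highest for 7 of 9 and for 18.7% of all genes. Vehicle mouse 1-5 was lowest for 6 of 9 and for 25.1% of all genes, yet was highest of its group for DUSP5 and SPRY1, the 2 genes that fell in resistant tumors. DUSP6 and SPRY4 shared their order in part, since both were highest in mice 1-2 and 1-6 among vehicle tumors and lowest in mouse 6-4 among sensitive tumors. The immediate early genes EGR1, FOS and FOSB, which ERK induces, ordered the resistant mice much as DUSP6 did. EGR1, a zinc finger factor, had 19.99, 92.5, 19.8, 74.8 and 8.82 TPM in the resistant mice, FOS had 20.9, 132, 21.1, 85.5 and 18.7 TPM and FOSB had 16.0, 102, 22.2, 231 and 7.26 TPM. All 3 were highest in mice 9-6 and 9-8 and lowest in mouse 9-9, the mice with the highest and the lowest DUSP6. AREG, which ERK also induces, had 23.4, 34.3, 30.2, 29.6 and 16.3 TPM in the same mice. It was highest in mouse 9-6 and lowest in mouse 9-9, with mouse 9-7 above mouse 9-8. CCND1 and PHLDA1, also induced by ERK, did not follow that order. CCND1 had 901, 543, 705, 715 and 771 TPM and was lowest in mouse 9-6. PHLDA1 had 4.14, 4.31, 5.27, 4.6 and 4.6 TPM and was highest in mouse 9-7. The share of all genes with the order of DUSP6 is not given here.

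**Figure D4:**
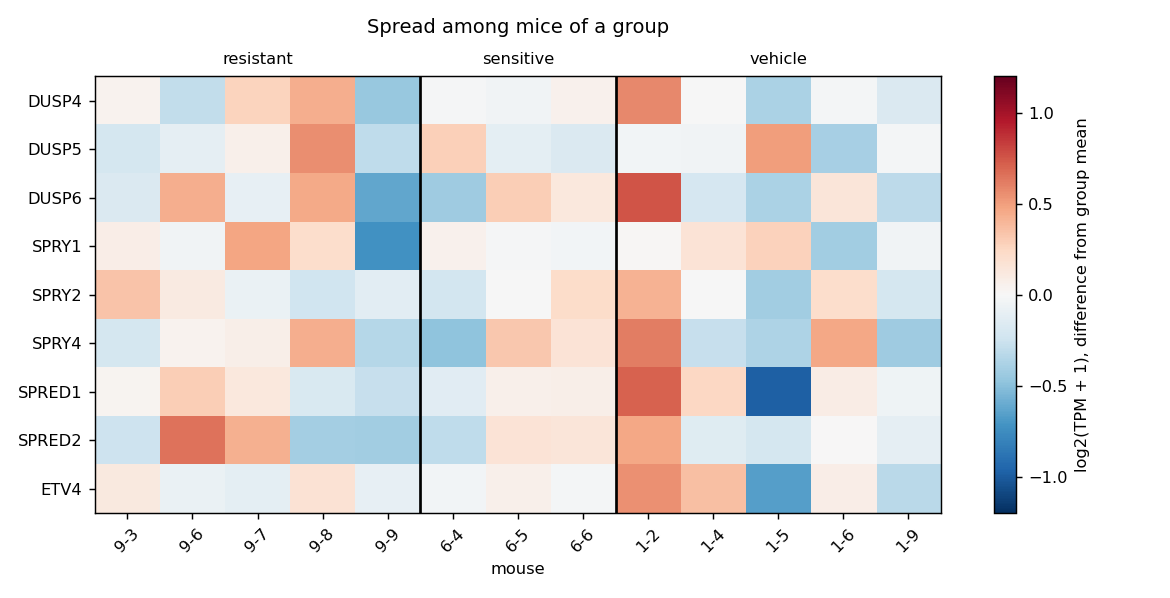
Difference of log2(TPM + 1) from the mean of its own group (color) for the 9 tested genes (down) in the 13 mice (across), grouped as resistant, sensitive and vehicle. Red is above and blue below the group mean: mouse 9-9 is blue in every row and the lowest of its group for 7 of the 9 genes, and mouse 1-2 is the highest of its group for 7 of 9.

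The genes whose profile over the 13 mice lay closest to each member were found among 10567 genes with a mean of at least 5 TPM, by the root mean square (RMS) difference of centred log2(TPM + 1). RCAN1, a regulator of the phosphatase calcineurin, was nearest to both DUSP6 (RMS difference 0.29) and SPRY4 (0.27), whose own SDs over mice were 0.66 and 0.73. RCAN1 averaged 30.7 ± 7.39 TPM in resistant (SD, n = 5), 12.7 ± 1.04 TPM in sensitive (SD, n = 3) and 11.9 ± 1.56 TPM in vehicle tumors (SD, n = 5). DNAJC22 and CCRN4L were the next for both genes. TRPV6, a calcium channel gene, was nearest to SPRY1 (0.19), followed by N4BP3 (0.21), against an SD of 0.79 for SPRY1 itself. TRPV6 averaged 3.83 ± 0.960 TPM in resistant, 8.71 ± 0.595 TPM in sensitive and 10.6 ± 2.77 TPM in vehicle tumors (SD, same n). For DUSP5 the nearest were ASAP3 (0.13), CLDN4 (0.15) and STRADB (0.16), and for SPRY2 they were BC009735 (0.16), EPB41L4A (0.16) and ORAI2 (0.18). SPRED2 was matched most closely by ENPP1 (0.13), FAM53B (0.16) and PKP2 (0.16). DUSP4 lay nearest to ADM2, PI4KAP2 and MAFG, SPRED1 to CLSTN3, RPSAP58 and PFKM, and ETV4 to NTHL1, ADM2 and BC033949, at 0.17 to 0.22.

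Close relatives outside the set showed a mixed picture. DUSP8, a phosphatase that acts mainly on the stress kinases JNK and p38, had 14.3, 12.6, 19.9, 20.6 and 11.1 TPM in resistant, 12.1, 10.3 and 10.8 TPM in sensitive and 10.8, 9.84, 10.7, 10.3 and 9.71 TPM in vehicle tumors. Resistant tumors lay above all vehicle tumors, mice 9-7 and 9-8 most clearly, and DUSP8 was higher by 0.67 ± 0.14 (adjusted p = 0.00865). DUSP7, a cytoplasmic ERK phosphatase like DUSP6, averaged 6.48 ± 0.733 TPM in resistant (SD, n = 5), 8.75 ± 1.04 TPM in sensitive (SD, n = 3) and 8.47 ± 1.16 TPM in vehicle tumors (SD, n = 5). DUSP7 was lower in resistant than in sensitive tumors by -0.34 ± 0.13 (adjusted p = 0.0438) and than in vehicle tumors by -0.34 ± 0.11 as fitted (adjusted p = 0.0225), or by -0.20 relative to the median of all genes (95% interval -0.43 to 0.03). Both DUSP7 calls were lost under median-of-ratios scaling (adjusted p = 0.0721 and 0.161) and quantile normalization (0.0532 and 0.143), and in 13 of 23 other settings for resistant versus sensitive and 5 of 23 for resistant versus vehicle tumors. DUSP1, DUSP2, DUSP9, DUSP10 and DUSP16 were not called in any comparison, nor was SPRED3. DUSP1 had 46.3 and 32.5 TPM in resistant mice 9-6 and 9-8 and 8.95 to 16.8 TPM in the other resistant mice. It had 9.59 to 11.2 TPM in sensitive and 7.43 to 15.9 TPM in vehicle tumors. SPRY3 and ETV1 were not tested, since they stayed at or under 0.445 TPM and 0.835 TPM.

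Counts over the rest of the pathway place the feedback genes among their neighbours. Of 101 tested genes in 6 lists, 24 were higher and 22 lower in resistant than in vehicle tumors, 21 higher and 13 lower in resistant than in sensitive tumors, and 5 higher and 8 lower in sensitive than in vehicle tumors. In that order 45.5%, 33.7% and 12.9% of the 101 genes were called, against 44.0%, 21.1% and 15.7% of all genes tested. The split depended on scaling: under median-of-ratios scaling it was 32 higher and 12 lower for resistant versus vehicle, 24 and 12 for resistant versus sensitive, and 7 and 5 for sensitive versus vehicle tumors. Under quantile normalization the counts were 29 and 12, 22 and 14, and 7 and 4 in the same order of comparisons. The split over all genes moved as well. For resistant versus vehicle tumors it was 1624 higher and 4570 lower in the main fit. Under median-of-ratios scaling it was 2579 and 2409, and under quantile normalization 2333 and 2773. For sensitive versus vehicle tumors it was 445 and 1767, 791 and 1055, and 938 and 989, in the same order of settings. The pathway total of 13 for sensitive versus vehicle tumors dropped to 3 without sensitive mouse 6-5 and to 7 without mouse 6-6.

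Other genes that ERK induces were the list with the most rises. Of 20 tested, 12 rose and 0 fell in resistant versus vehicle tumors (median change 0.83), 10 rose and 0 fell against sensitive tumors (median 0.78), and 3 rose and 0 fell in sensitive versus vehicle tumors (median 0.18). The medians over all genes are 0. The list was chosen with earlier results of these data known, and how far that choice shaped its split was not tested. Of all genes 11.5% were called higher and 32.5% lower for resistant versus vehicle tumors. The shares were 9.56% and 11.6% for resistant versus sensitive and 3.16% and 12.6% for sensitive versus vehicle tumors. CCND1, the cyclin that activates CDK4, averaged 727 ± 129 TPM in resistant (SD, n = 5), 420 ± 51.2 TPM in sensitive (SD, n = 3) and 263 ± 34.6 TPM in vehicle tumors (SD, n = 5). CCND1 was higher in resistant than in vehicle tumors by 1.59 ± 0.12 (adjusted p = 2.33e-06). AREG, a ligand of the EGF receptor, averaged 26.8 ± 7.01 TPM in resistant, 4.55 ± 1.43 TPM in sensitive and 6.07 ± 2.76 TPM in vehicle tumors (SD, same n). In sensitive versus vehicle tumors CCND1 rose by 0.75 ± 0.14 (adjusted p = 0.00621), MYC by 0.63 ± 0.14 (adjusted p = 0.0142) and EGR3 by 2.28 ± 0.59 (adjusted p = 0.0212). The calls of MYC and EGR3 were lost without sensitive mouse 6-5 (adjusted p = 0.091 and 0.137) and without mouse 6-6, while that of CCND1 held in all 23 other settings, where its adjusted p reached 0.0448.

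Genes of the kinase cascade went both ways. Of 22 tested, 3 were called higher and 8 lower in resistant versus vehicle tumors, against 11.5% higher and 32.5% lower among all genes. Under median-of-ratios scaling or quantile normalization 3 were higher and 4 lower. All genes then split into 2579 higher and 2409 lower, or 2333 and 2773, in that order of scalings. Against sensitive tumors 1 rose and 4 fell (9.56% and 11.6% of all genes), and in sensitive versus vehicle tumors 1 rose and 4 fell (3.16% and 12.6% of all genes). GAB2, a docking protein that links receptors to RAS activation, averaged 16.7 ± 4.95 TPM in resistant (SD, n = 5), 7.62 ± 4.01 TPM in sensitive (SD, n = 3) and 3.13 ± 0.722 TPM in vehicle tumors (SD, n = 5). GAB2 was higher in resistant than in vehicle tumors by 2.22 ± 0.25 (adjusted p = 4e-05). BRAF, a RAF kinase, averaged 3.65 ± 0.385 TPM in resistant, 6.52 ± 0.623 TPM in sensitive and 6.33 ± 0.737 TPM in vehicle tumors (SD, same n), and was lower in resistant tumors by -0.64 against sensitive (adjusted p = 0.00165) and by -0.52 against vehicle (adjusted p = 0.000205). MAPK3, which encodes ERK1, was lower in sensitive than in vehicle tumors by -0.51 ± 0.13 (adjusted p = 0.00937), a call lost without sensitive mouse 6-5 (adjusted p = 0.0775).

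**Figure D5:**
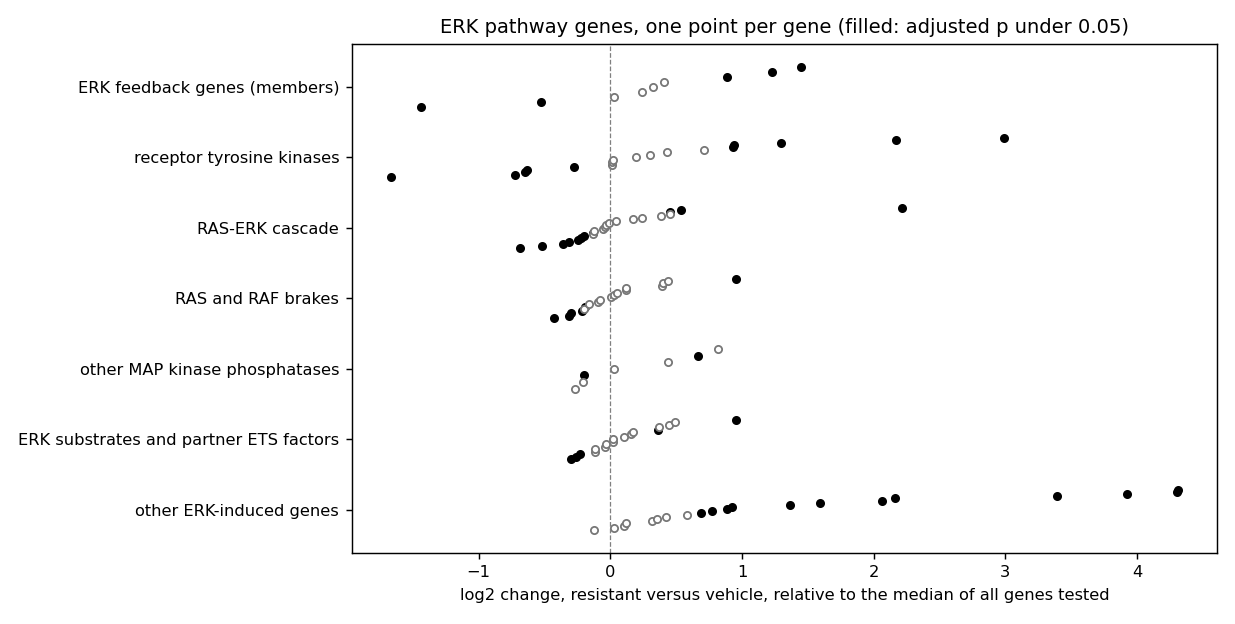
Log2 change between resistant and vehicle tumors (horizontal axis, relative to the median of all genes tested), one point per tested gene, for the feedback genes and the 6 other pathway lists. Filled points passed the adjusted threshold: the 12 filled points of the other ERK-induced genes all lie right of 0, while filled feedback genes lie on both sides, 3 right and 2 left. The lists were chosen with earlier results of these data known.

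Receptors and other brakes went both ways. Of 17 tested receptor tyrosine kinases, 5 rose and 5 fell in resistant versus vehicle tumors, 5 rose and 4 fell against sensitive tumors, and 1 rose and 1 fell in sensitive versus vehicle tumors. In that order 58.8%, 52.9% and 11.8% of the receptors were called, against 44.0%, 21.1% and 15.7% of all genes. FGFR4, an FGF receptor, averaged 95.6 ± 21.95 TPM in resistant (SD, n = 5), 268 ± 78.1 TPM in sensitive (SD, n = 3) and 331 ± 49.1 TPM in vehicle tumors (SD, n = 5), with a resistant versus vehicle change of -1.66 ± 0.17 (adjusted p = 5e-06). FGFR3 rose by 0.94 ± 0.09 (adjusted p = 2.36e-05) and IGF1R, the receptor of insulin-like growth factors, by 1.29 ± 0.13 (adjusted p = 1.53e-05) in the same comparison. Of 18 tested genes in the list of brakes on RAS and RAF outside the feedback set, 1 rose and 5 fell in resistant versus vehicle tumors. Against sensitive tumors 3 rose and 3 fell, and in sensitive versus vehicle tumors 0 rose and 3 fell. The called shares were 33.3%, 33.3% and 16.7%, against the same shares of all genes. The list also held LGALS1, which is not an established brake. LGALS1 was counted among the rises against sensitive tumors (1.74 ± 0.30) and the falls in sensitive versus vehicle tumors (-1.96 ± 0.30). ERRFI1, a feedback inhibitor of the EGF receptor, was the one that rose against vehicle, by 0.95 ± 0.15 (adjusted p = 0.000714), with 19.0 ± 3.79 TPM in resistant and 10.4 ± 2.27 TPM in vehicle tumors (SD, n = 5 each). Under either of the other scalings the resistant versus vehicle split was 7 higher and 4 lower for the receptors and 3 and 3 for the brake list. The split over all genes moved under these scalings too, as given above. RASA1 and RASA3, which switch RAS off, fell by 0.32 and 0.30 (adjusted p = 0.00224 and 0.00317). Of 17 tested ERK substrates and partner ETS factors, 2 rose and 3 fell in resistant versus vehicle tumors (4 and 1 under median-of-ratios scaling, 3 and 1 under quantile normalization), 2 rose and 1 fell against sensitive tumors, and limma called 0 in sensitive versus vehicle tumors, where 3 had an unadjusted p under 0.05. RPS6KA2, a kinase of the RSK family that ERK activates, was higher in resistant than in vehicle tumors by 0.96 ± 0.12 (adjusted p = 0.000163) and averaged 4.96 ± 0.835 TPM in resistant and 2.37 ± 0.402 TPM in vehicle tumors (SD, n = 5 each). Among 7 other MAP kinase phosphatases, DUSP8 rose and DUSP7 fell in resistant versus vehicle tumors, DUSP7 fell against sensitive tumors, and limma called 0 in sensitive versus vehicle tumors, where 0 had an unadjusted p under 0.05. In the same order of comparisons the called shares were 29.4%, 17.6% and 0% for the substrates and partner factors. For these phosphatases they were 28.6%, 14.3% and 0%, against 44.0%, 21.1% and 15.7% of all genes.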

How the data were processed

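Bulk RNA sequencing of 26 libraries, 2 from each of 13 mice, was deposited by the authors as 1 table of TPM per gene, and no read counts were used here. Tools listed in the submitters' processing notes, without roles, are RSEM, STAR, HTSeq and FastQC, with builds GRCh38 and GRCm38. How mouse reads were set aside and whether counting used strand are not given in the sources used here. One unnamed entry (1.49 to 5.51 TPM) was left out, and library sums were 999847 to 999887 TPM.

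Values of log2(TPM + 1) of libraries A and B were averaged per mouse. Genes that reached 1 TPM (mean of A and B) in 3 or more mice entered a limma fit with the trend option (limma 3.58.1, R 4.3.3) over all 13 mice, tested on simulated data first. The mouse numbers do not link groups, and letters A and B mark libraries of 1 mouse, so only a fit over 26 libraries could carry a replicate block. The members and gene lists were chosen with earlier results of these data known. The naming rule took all members, their close relatives, up to 4 called genes per list and comparison by adjusted p, and the 3 nearest profiles; of the genes it allows, those shown were chosen after their values were seen, as were EGR1 and FOSB by mouse. Some genes that the rule takes are not reported here, but they stay in the fits and counts. PDGFRA and PDGFRB stand in both the receptor list and the fibroblast list. Alternatives were other scalings, pseudocounts and filters, A or B alone, the replicate block and leaving out each mouse. Positions are from GENCODE 29 and promoters from RefSeq.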

Additional observations from a re-analysis of the deposited data

Results flagged for a closer look

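Over 40 sets of values, each a gene in 1 group of mice, 2 stood out because a single mouse lay far from the rest, and chance alone gives such a gap in about 1 in 20. DUSP16, a phosphatase of the stress kinases, was 37.5 TPM in vehicle mouse 1-5 and 25.7 to 27.2 TPM in the other vehicle mice, a gap of 0.848 of the whole range. ETV1, an ETS factor related to ETV4, was 0.835 TPM in resistant mouse 9-6 and 0.225 to 0.320 TPM in the other resistant mice, a gap of 0.817 of the range. Neither gene is a member of the feedback set, and none of the 10 members was singled out in this way.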

How the results depend on the processing

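Across 23 alternatives the feedback genes called for resistant versus vehicle tumors numbered 5 in all but these: 4 with A alone, and 2 with a filter at 5 TPM, where DUSP6, SPRY2, SPRY4 and ETV4 are not tested. For resistant versus sensitive tumors the main 3 became 1 with a pseudocount of 0.1 and 1 with that filter, and ranged from 1 to 3 when each mouse was left out. For sensitive versus vehicle tumors the count stayed 0 in all 23. The pathway count of 13 for sensitive versus vehicle tumors ranged from 3 to 17 when each mouse was left out. Signs turned only for uncalled genes. ETV4 was -0.00523 for resistant versus sensitive tumors with B alone, and for sensitive versus vehicle it was -0.0153 under quantile normalization, -0.0521 with A alone and -0.0843 to 0.23 when each mouse was left out. DUSP4 for resistant versus vehicle was -0.0766 with no filter and -0.0863 to 0.17 when each mouse was left out, and -0.11 as fitted. With the replicate block over 26 libraries (within-mouse correlation 0.636) 3 members were called for resistant versus sensitive, 5 for resistant versus vehicle and 0 for sensitive versus vehicle tumors; pathway counts were 40, 55 and 19. Genes near 1 TPM, ETV4 and vehicle SPRY4 among them, and the group of 3 sensitive mice limit precision, and no depth is known.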
